A study of Mus musculus with 4 samples.

Results

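Plac8, Ffar2 and Gem are 3 genes picked from a mouse helper T cell array study because their signal was low in Th1 cells that lack STAT4. Every probe set annotated to 1 of these symbols alone was used, which gave 4 probe sets, 1 for Plac8, 2 for Ffar2 and 1 for Gem, among 18193 genes measured. The picking used the Th1 STAT4-deficient and Th1 wild type values, so those values are given as a description and support nothing further. The picking rule did not use the 2 Th2 arrays, but earlier results of these data were known when the members were chosen.

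The study compared sorted naive CD4+ T cells of 3 genotypes after 7 days of culture, with 1 array for each of 4 groups. The groups were STAT4-deficient cells (C57BL6-STAT4<tm1>) and wild type C57BL/6J cells in Th1 culture, and STAT6-deficient cells (B6.129S2©-STAT6<tm1Gru>/J) and wild type C57BL/6J cells in Th2 culture. All cultures began with 3 days of CD3 and CD28 stimulation, were grown on for 4 days with interleukin-2, and were restimulated in the same way for 2 h before RNA was taken. Th1 cultures had interleukin-12 and an antibody that blocks interleukin-4, and Th2 cultures had interleukin-4 and an antibody that blocks interferon gamma, with the same cytokine present again in the restimulation. Both alleles are germline deficiencies by their labels, and the labels give neither the ages nor the number of mice behind an array. With no replicate in any group there is no test, no error and no p-value for any difference below.

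STAT4 is the transcription factor that interleukin-12 activates in T cells, and STAT6 is the one that interleukin-4 activates. Plac8, also called onzin, encodes a small cysteine-rich protein found in many leukocytes. Ffar2, also called GPR43, is a cell surface receptor for acetate, propionate and butyrate, the short-chain fatty acids that gut bacteria release, and is best known from neutrophils and other myeloid cells. Gem is a small GTPase of the RGK family that was named for its induction in mitogen-stimulated T cells; RGK proteins bind the beta subunits of voltage-gated calcium channels and lower the channel current.

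The promoters are shown because the 3 genes were low together on the STAT4-deficient array. RefSeq start sites of build GRCm38.p6 were matched for Plac8 (2 start sites) and Ffar2 (4 start sites); Gem is named only. The 250 bases before a start site were searched on both strands for 5 motifs, and capitals mark every match. TTCNNNGAA, the STAT motif, stood in 7.02% of all 32851 such windows, TGACGTCA, the cyclic AMP response element, in 1.55%, its shorter core TGACG in 17.8%, the T-box motif AGGTGTGA in 1.12% and the NFAT core GGAAA in 55.6%. The core is part of the full element, so their matches overlap. The first Plac8 window lies at chr5:100572206-100572455 on the minus strand and held the T-box motif from base -249 to base -242 before the start, besides 3 matches of GGAAA. The outermost Ffar2 window, at chr7:30823776-30824025 on the minus strand, matched none of the 5 motifs. The next Ffar2 window, at chr7:30821649-30821898 on the minus strand, held GGAAA at 3 places.
Plac8 first start site: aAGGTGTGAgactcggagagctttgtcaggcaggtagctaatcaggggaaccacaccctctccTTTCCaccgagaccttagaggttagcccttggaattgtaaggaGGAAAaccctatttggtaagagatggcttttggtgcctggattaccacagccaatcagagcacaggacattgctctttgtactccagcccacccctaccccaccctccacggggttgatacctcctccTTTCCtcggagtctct
Ffar2 first start site: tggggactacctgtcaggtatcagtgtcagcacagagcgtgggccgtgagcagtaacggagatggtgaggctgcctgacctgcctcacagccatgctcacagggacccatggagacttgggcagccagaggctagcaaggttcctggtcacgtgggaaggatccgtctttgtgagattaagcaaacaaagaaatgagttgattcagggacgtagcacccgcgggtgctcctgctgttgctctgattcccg
Ffar2 second start site: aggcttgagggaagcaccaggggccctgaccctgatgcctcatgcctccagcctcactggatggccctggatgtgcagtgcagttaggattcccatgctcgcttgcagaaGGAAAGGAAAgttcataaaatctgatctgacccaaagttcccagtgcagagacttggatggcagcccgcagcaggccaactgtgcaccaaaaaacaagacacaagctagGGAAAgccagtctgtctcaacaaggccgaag

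The other 3 windows, at the remaining Plac8 start site and the last pair of Ffar2 start sites, held GGAAA at 3, 1 and 1 places and none of the other motifs; the Ffar2 windows of this pair overlap. No window of either gene held TTCNNNGAA. These matches describe letters in the windows and say nothing about the binding of a factor.

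Values are RMA expression values, a log2 signal per probe set as the authors deposited it. A gene was called where 2 arrays differed by at least 1 log2 unit, which is 2-fold, and the brighter of them reached 5.82, the median over all probe sets and arrays. A technical guide is how far probe sets for the same gene disagree about a difference; their SD was 0.48 log2 units for the STAT4 comparison, 0.65 for the STAT6 comparison, 0.71 between the wild types and 0.85 between the deficient cells; it covers probe behaviour and not variation between mice. The array medians ran from 5.63 to 6.01 and the 75th percentiles from 7.53 to 8.10, so the deposited arrays do not share 1 distribution. For beta-actin, the log2 excess of 3′ over 5′ control probes, a sign of RNA integrity, was 0.66 on the STAT4-deficient Th1 array and 0.32 on the wild type Th1 array, and 2.08 on the STAT6-deficient Th2 array and 0.85 on the wild type Th2 array. Stat4, measured by 1 probe set, read 9.20 in STAT4-deficient and 11.45 in wild type Th1 cells; whether its probes lie in the deleted part is not known here. All 7 measured CD4 T cell markers reached the level minimum on all arrays, from 9.68 for Cd4 on the STAT6-deficient array upward.

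Plac8 was by far brightest in wild type Th1 cells. It read 8.96 in STAT4-deficient Th1, 14.01 in wild type Th1, 9.18 in STAT6-deficient Th2 and 8.78 in wild type Th2 cells. Wild type Th1 stood alone at the top, brighter than 99.6% of the probe sets on its array, and the other groups lay within 0.40 log2 units of each other. Without STAT4 the Th1 signal was 33.2-fold lower, a difference of -5.05. In the Th2 arrays, which the picking rule did not use, STAT6-deficient cells differed from wild type by 0.40 log2 units. That is less than the probe-set spread of 0.65 and under the 2-fold limit. The Plac8 signal in the dimmer groups was still above 80.5% of the probe sets or more on each array, so it was lower there and not at the bottom of the scale.

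Ffar2 was brightest in wild type Th1 cells, intermediate in wild type Th2 cells and dim in both deficient groups. Its brighter probe set read 6.50 in STAT4-deficient Th1, 10.83 in wild type Th1, 6.26 in STAT6-deficient Th2 and 7.61 in wild type Th2 cells. The other read 6.48 in STAT4-deficient Th1, 10.92 in wild type Th1, 5.69 in STAT6-deficient Th2 and 7.78 in wild type Th2 cells. The probe sets put the groups in the same order and lay within 0.17 log2 units of each other on 3 arrays, and 0.57 apart on the STAT6-deficient array. The STAT4-deficient Th1 signal was 20.1-fold lower than wild type on the first probe set and 21.6-fold lower on the second. In Th2 cells the STAT6-deficient signal was below wild type by a smaller step, with differences of -1.35 on the first and -2.09 on the second probe set. The first of these became -0.95 after quantile normalization of the arrays, under the 2-fold limit, so the lower Ffar2 signal without STAT6 depends on scaling and probe set. The 2 deficient groups differed by 0.24 and 0.79 log2 units (STAT4-deficient Th1 minus STAT6-deficient Th2), both inside the probe-set spread of 0.85.

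Gem had high signal in both wild types and was lower without either STAT. It read 6.05 in STAT4-deficient Th1, 10.26 in wild type Th1, 8.45 in STAT6-deficient Th2 and 10.43 in wild type Th2 cells. The wild types differed by -0.17 log2 units (Th1 minus Th2), less than the probe-set spread of 0.71, and their order turned to 0.37 after loess normalization, so they cannot be ranked. The STAT4-deficient Th1 signal was 18.4-fold lower than wild type. The STAT6-deficient Th2 signal, which the picking rule did not use, was 3.93-fold lower than its wild type, a difference of -1.97. The deficient groups differed from each other as well, by -2.40 log2 units (STAT4-deficient Th1 minus STAT6-deficient Th2).

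**Figure D1:**
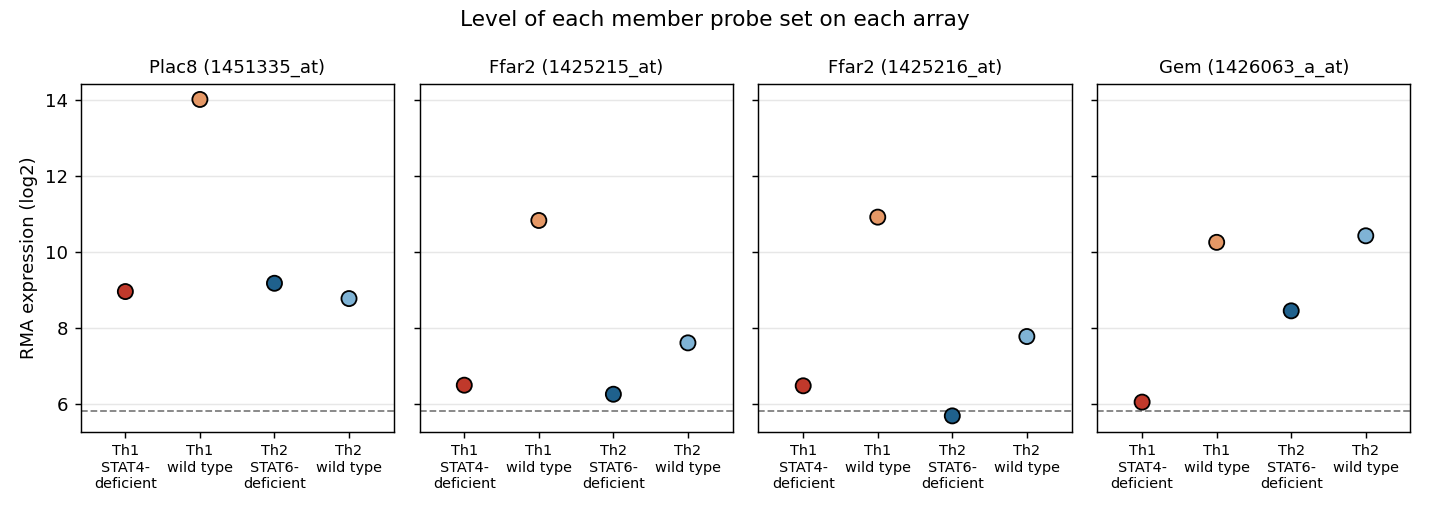
Level of the 4 member probe sets (RMA, log2) on each of the 4 arrays, 1 point per array with no replicates; the dashed line is the level minimum of 5.82. Plac8 is high at 14.01 in wild type Th1 cells alone, Ffar2 is also intermediate in wild type Th2 cells, and Gem is high in both wild types.

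In the STAT4 comparison all 3 were called lower, which the choice of members fixes, beside 5.34% of the 12608 genes at the level minimum called lower and 6.18% called higher. They ranked 5, 9 and 11 from the lowest difference. The choice had no numeric limit, so the genes around them in that order stand for its edge. Gja1 (-6.41) and Esm1 (-5.74) came just before Plac8, Serpinb1a (-5.0, with another probe set at -1.73) and Klrk1 (-4.89) just after it. Mmp13 (-4.61) came just before Ffar2, G530011O06Rik (-4.24) lay between Ffar2 and Gem, and Ifng (-4.14) and Klrc1 (-4.11) followed Gem.

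In the STAT6 comparison 2 of the 3, Ffar2 and Gem, were called lower and none higher, where 11490 genes reached the level minimum and 19.5% of them were called lower and 7.01% higher. The median over those genes was -0.30 log2 units, so the array as a whole leaned the same way as Ffar2 and Gem. Gem ranked 519 and Ffar2 1299 from the lowest of 11490, and Plac8 ranked 9405. The larger 3′ excess of the actin control belongs to the same STAT6-deficient array, and its part in these differences was not tested. Of the 673 genes called lower without STAT4, 270 were also called lower without STAT6; these are 40.1% of the first list and 12.1% of the 2237 genes of the second, and Ffar2 and Gem are among them. The 2 comparisons share no array.

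**Figure D2:**
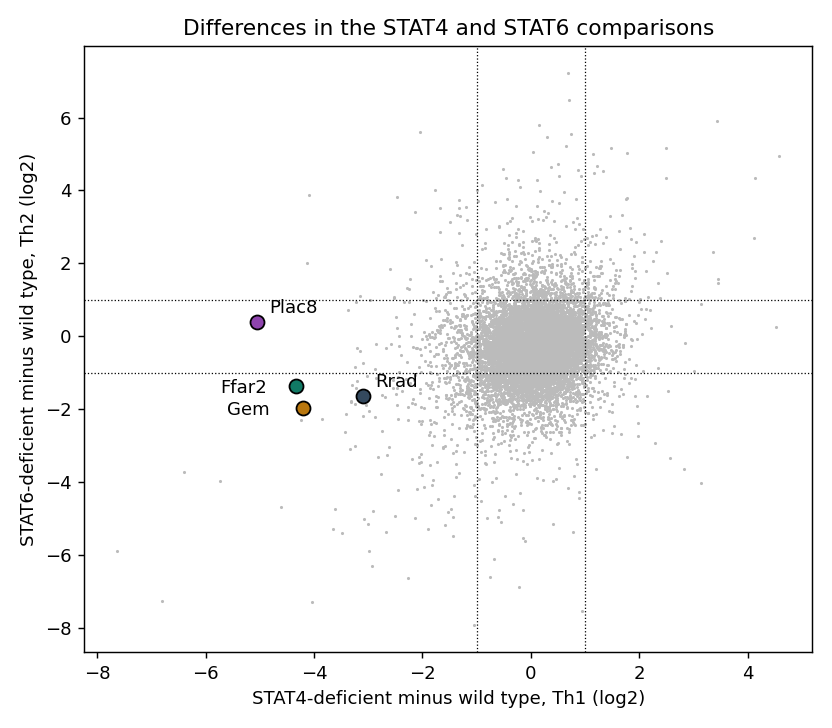
Each grey point is 1 gene at the level minimum in both comparisons, placed by its log2 difference in Th1 cells (STAT4-deficient minus wild type, x axis) and in Th2 cells (STAT6-deficient minus wild type, y axis); dotted lines mark 2-fold. Plac8 lies at -5.05 and 0.40, while Ffar2, Gem and the Gem relative Rrad lie in the lower left, with Gem at -4.20 and -1.97.

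Between the wild types, Plac8 and Ffar2 were called higher in Th1 than in Th2 cells, against 8.14% of 12111 genes. These differences share the wild type Th1 array with the picking contrast and are descriptions. Plac8 was 37.7-fold higher in Th1 cells and the first Ffar2 probe set 9.31-fold, and they ranked 7 and 42 from the highest. Between the deficient groups Gem alone was called, lower in STAT4-deficient Th1 than in STAT6-deficient Th2 cells, where 10.3% of 12582 genes were called lower; it ranked 148 from the lowest. That difference shares the STAT4-deficient array with the picking contrast. Plac8 differed there by -0.22 log2 units.

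Rrad, a relative of Gem, was called lower in both comparisons as Gem was. Rrad encodes the RGK protein Rad, known as a brake on calcium current in heart muscle. Its 1 probe set read 9.58 in STAT4-deficient Th1, 12.68 in wild type Th1, 9.39 in STAT6-deficient Th2 and 11.03 in wild type Th2 cells. Both deficient groups were below both wild types. The differences were -3.10 without STAT4 and -1.64 without STAT6, and over the 4 other scalings they ran from -3.34 to -2.71 and from -1.75 to -1.41. Unlike Gem, Rrad was higher in wild type Th1 than in wild type Th2 cells, by 1.66 log2 units. Rem2, another RGK gene, stayed under the level minimum in Th1 cells at 5.63 without STAT4 and 5.74 in wild type. In Th2 cells Rem2 read 6.75 without STAT6 and 5.74 in wild type on its brighter probe set, a difference of 1.01, while its other probe set differed by 0.00. Rem1 was not analysed here.

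Among genes for the calcium channel subunits that RGK proteins bind, 1 was called lower in each comparison, where 5.34% of all genes were called lower without STAT4 and 19.5% without STAT6, so these few genes show no result of their own. Of 11 listed subunits of voltage-gated calcium channels 10 were measured, and 6 reached the level minimum in Th1 cells, of which 1 was called lower and none higher without STAT4. That gene was Cacna1s, which encodes the pore subunit of the skeletal muscle channel, at 4.0 without STAT4 and 6.16 in wild type. The median of the 6 was -0.15 log2 units, against 0.13 over all genes at the level minimum, and with centring on the hybridization controls it turned to 0.31, with 2 genes called higher. In Th2 cells 1 of 5 was called lower and none higher without STAT6, with a median of 0.15 against -0.30 over all genes, and -0.29 to 0.01 under other scalings. It was Cacna1c, the pore subunit of the cardiac channel, at 4.90 without STAT6 and 6.49 in wild type. That is a difference of -1.59 on its main probe set, with -4.27 on the other. By their main probe sets none of the measured subunits passed 7.07 on any array. Cacnb3 was not analysed here.

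Genes induced early by T cell stimulation were lower in part without STAT4, while in the deposited Th2 values none of them was called lower as Gem was. Of 18 such genes, all at the level minimum, 12 were called lower and none higher without STAT4, beside 5.34% and 6.18% of all genes. Their median was -1.37 against 0.13 over all genes. Over the 4 other scalings 9 to 12 were called lower. Among them were the stress factor gene Atf3 (-2.06), Ier3 (-2.21), the AP-1 genes Fos (-1.85) and Jun (-1.83), and Egr1 (-1.76); another Jun probe set was at -0.76. Nr4a2, an orphan nuclear receptor gene, had a difference of -3.14 by the brightest of its probe sets and as little as -0.32 by another. Il2 (-0.14) and the activation marker gene Cd69 (-0.19) were under the 2-fold limit. Without STAT6 none of the 18 was called lower and 5 were called higher, beside 19.5% and 7.01% of all genes. Their median was 0.23, while Gem was lower by 1.97 log2 units. The 5 were Il2 (2.31), Cd69 (2.04), the phosphatase gene Dusp1 (1.95), Myc (1.18) and Nr4a2 (1.09). Fos (-0.997), Junb (-0.96), Atf3 (-0.83), Egr1 (-0.48) and Ier2 (-0.36) were below wild type without STAT6 by less than 2-fold, in the direction of Gem. The rest of the 18 were above it. With arrays centred on the hybridization controls 2 of the 18, Fos and Junb, were called lower and 4 higher.

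**Figure D3:**
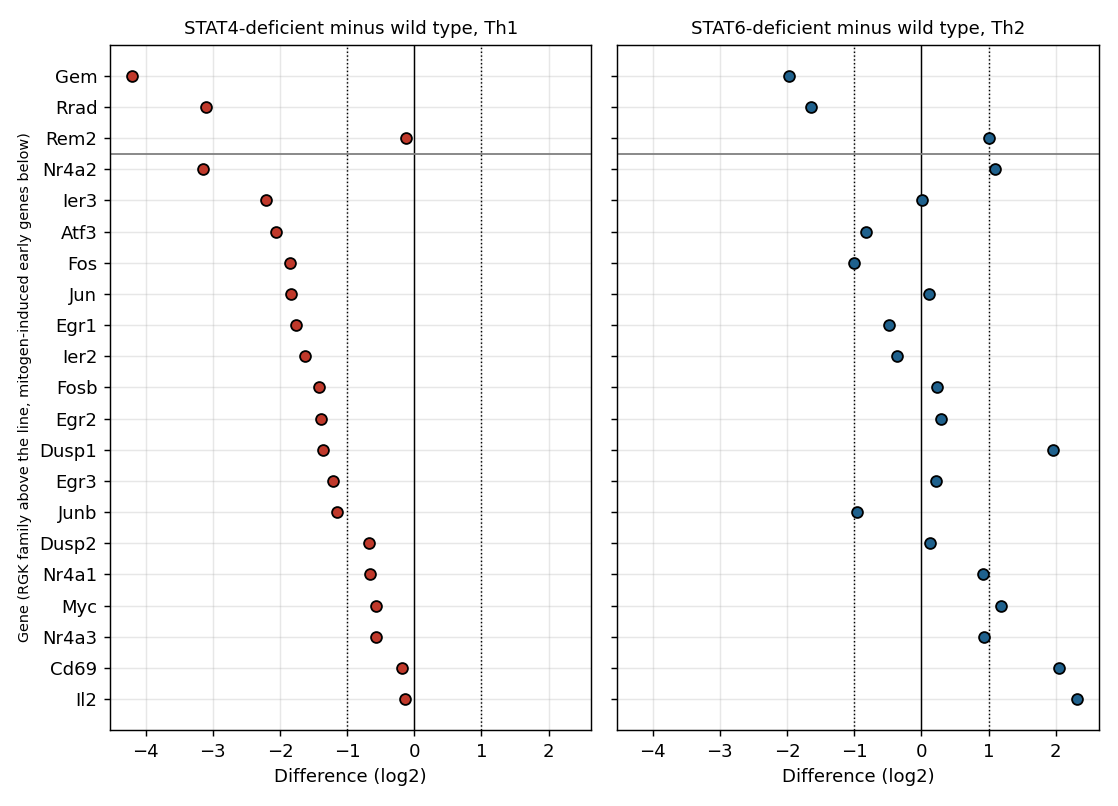
Log2 difference of each gene without STAT4 in Th1 cells (left panel) and without STAT6 in Th2 cells (right panel), for the RGK genes above the grey line and 18 mitogen-induced early genes below it, ordered by the left panel; dotted lines mark 2-fold. Gem and Rrad are below -1 in both panels, whereas 12 early genes are below -1 on the left and none on the right.

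Other receptors for fatty acids and hydroxy acids gave little signal. Besides Ffar2, 5 of 7 listed genes were measured, and only Gpr84, which encodes a receptor for medium-chain fatty acids, reached the level minimum in the Th1 comparison, at 5.94 without STAT4 and 5.38 in wild type, a difference of 0.56 that was not called. The lactate receptor gene Hcar1, the niacin and hydroxybutyrate receptor gene Hcar2, the long-chain fatty acid receptor gene Ffar4 and the odorant receptor gene Olfr78 did not reach it on any array. The highest of these readings was 5.77, for Hcar2 in STAT4-deficient Th1 cells. Ffar3 and Ffar1, the relatives that lie beside Ffar2, were not analysed here.

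Signalling genes downstream of Ffar2 were called in small numbers, beside all genes at the level minimum, of which 5.34% were lower and 6.18% higher without STAT4, and 19.5% lower and 7.01% higher without STAT6. Of 12 genes for G proteins, arrestins and phospholipase C enzymes, 10 reached the level minimum, and 1 was called lower and none higher without STAT4, with a median of 0.15 (-0.09 to 0.53 under other scalings, with 2 called higher at the upper end). The inhibitory G protein gene Gnai2 read 11.42 without STAT4 and 11.01 in wild type Th1 cells on its main probe set. Its other probe set differed by -0.56 there, and by -2.53 without STAT6, where the main one differed by -0.58. Gnai3, another of that class, was the called gene at 10.74 without STAT4 and 11.74 in wild type, a difference of -1.01 on its main probe set and -0.58 on the other. In Th2 cells 3 of 11 were called lower and none higher without STAT6. These were Plcb4 (5.12 without STAT6, 9.18 in wild type), Gnai1 (3.55 and 7.39) and the arrestin gene Arrb1 (7.21 and 9.08), with Plcb4 probe sets from -4.06 to -1.22 and Gnai1 probe sets from -5.01 to -0.63. Of 7 genes for short-chain fatty acid transport and activation, 6 were measured and 4 reached the level minimum in each comparison. The acetate-activating enzyme gene Acss1 was called higher without STAT4 (1.05, with another probe set at -0.34). The lactate exporter gene Slc16a3 was called lower without STAT6, at 5.35 against 7.50 in wild type. Slc16a1, the main monocarboxylate carrier gene, was bright on all arrays, between 11.64 and 12.34.

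The genes related to Plac8 by their protein family were dim. Cnfn, which encodes the skin protein cornifelin, read 5.82 in STAT4-deficient and 5.92 in wild type Th1 cells, and 4.15 in STAT6-deficient and 4.75 in wild type Th2 cells. Plac8l1 did not reach the level minimum on any array. Neither was called in the STAT4 or the STAT6 comparison. Of 4 genes described elsewhere as partners or targets of Plac8, all measured, Mdm2, which encodes the ubiquitin ligase of p53, was called lower without STAT4 (-1.18, with probe sets from -1.67 to -0.05). Cebpb, a transcription factor gene, differed by -0.05 without STAT4 and was called lower without STAT6, at 9.84 against 10.99 in wild type. Plscr1, an interferon-induced scramblase gene, was called higher without STAT6, at 12.47 against 10.42 in wild type, with probe sets from 1.39 to 2.22. Without STAT4 its main probe set differed by -0.65 and the others by -1.07 and -1.27. Akt1 was called in neither comparison.

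Of 7 listed interleukin-12 response genes 6 were called lower and none higher without STAT4, with a median of -2.26. Stat4, the deficient gene itself, is 1 of those called lower, and the median is its value. Among all genes at the level minimum 5.34% were called lower and 6.18% higher in that comparison. Without STAT6, 1 listed gene was called lower and 4 higher, beside 19.5% and 7.01% of all genes. Hlx, a homeobox gene of Th1 cells, was the gene lower in both, at 5.51 without STAT4 and 7.77 in wild type Th1 cells, and at 5.08 without STAT6 and 7.01 in wild type Th2 cells. Tbx21, which encodes the T-box factor T-bet, was at 11.36 in STAT4-deficient and 12.26 in wild type Th1 cells, and at 11.85 in STAT6-deficient and 7.69 in wild type Th2 cells.

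Genes whose 4 values most resembled each member were found by the distance between profiles, each centred on its own mean over the 4 arrays, among 13146 other genes at the level minimum on some array. With 4 arrays this is a description, and the members' large Th1 difference weighs heavily in it. Nearest to Plac8 were Klrk1, which encodes the receptor NKG2D (distance 0.57 log2 units), Serpinb1a (0.84), a protease inhibitor gene, and Klrc1 (1.10), which encodes the receptor NKG2A. Nearest to Ffar2 were Klrc1 (0.63), the cathepsin gene Ctsw (0.998) and Mctp2 (1.11), and Rrad was 5 in that order at 1.20. Nearest to Gem were Batf3 (0.84), a transcription factor gene, Ttc39c (1.01) and Nlk (1.07), which encodes a protein kinase. These profiles are those of main probe sets. In the STAT4 comparison another Ttc39c probe set differed by -0.13, another of Nlk by -1.82 and the other of Serpinb1a by -1.73. Batf3 read 6.69 in STAT4-deficient Th1, 9.73 in wild type Th1, 8.71 in STAT6-deficient Th2 and 10.59 in wild type Th2 cells. Ffar2 was number 8 in the order from Plac8, at 1.55. Gem was far from both, at 4.19 from Plac8 and 3.05 from Ffar2, while Rrad lay 2.36 from Gem.

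**Figure D4:**
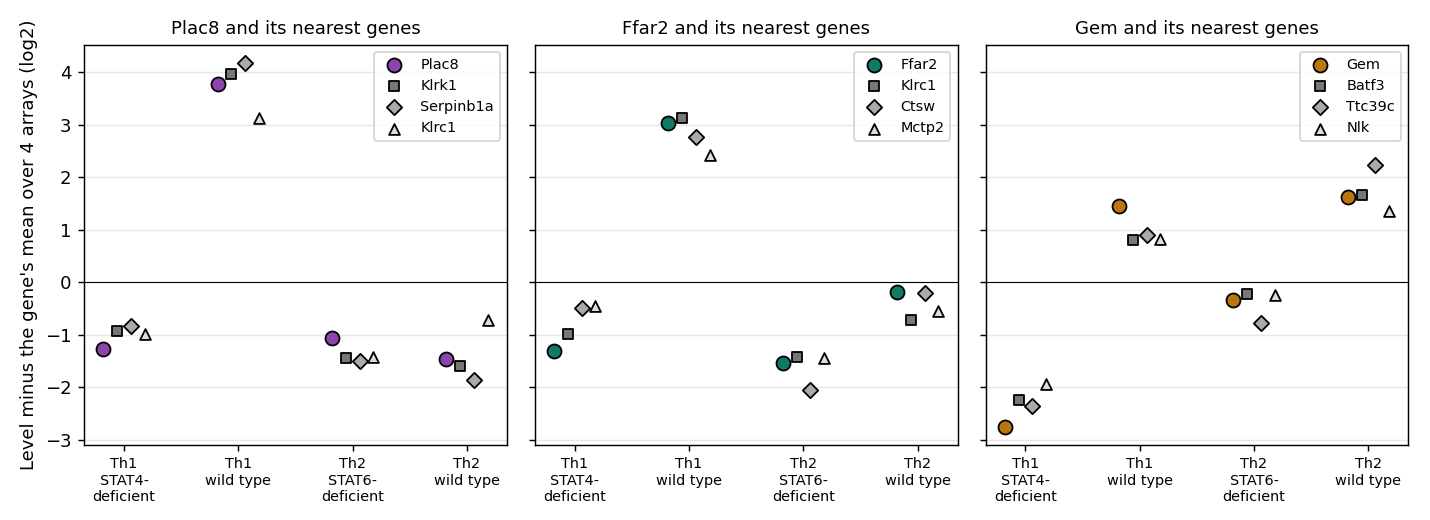
Log2 level minus the gene's own mean over the 4 arrays, for each member (circle) and the 3 genes nearest to it (square, diamond and triangle); 1 point per gene and array. By main probe sets, Plac8 and its nearest genes are high in wild type Th1 cells alone. Gem and its nearest genes are high in both wild types and lowest in STAT4-deficient Th1 cells.

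None of the measured genes beside the members on the chromosome was called in Th1 cells. On chromosome 5, Cops4 and Coq2, the genes on the 2 sides of Plac8, read 9.93 and 8.87 in STAT4-deficient Th1 cells, against 9.46 and 8.09 in wild type Th1 cells. Hpse, the next gene, was under the level minimum in Th1 cells. On chromosome 7, Krtdap and Dmkn, both genes of skin, were under the level minimum on all arrays. On chromosome 4, Pdp1 near Gem read 8.04 in STAT4-deficient and 7.97 in wild type Th1 cells. Cdh17, the gene next to Gem, was under the level minimum in both Th1 arrays and was 4.39 log2 units lower without STAT6, at 3.73 against 8.12 in wild type Th2 cells.

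Plac8 and Ffar2 are also made by myeloid cells, so markers of other cell types were read on the same arrays. In bulk RNA, fewer cells of a type and less RNA per cell cannot be told apart. Among all genes at the level minimum 5.34% were called lower and 6.18% higher without STAT4, and 19.5% and 7.01% without STAT6. Of 8 neutrophil markers 4 reached the level minimum in Th1 cells, and 1 was called lower without STAT4. The uncalled ones of these 4 were Mpo (-0.72), Camp (-0.11) and Ngp (0.55). The log2 values of the 8 summed to 44.5 in STAT4-deficient and 45.7 in wild type Th1 cells. Here and below such sums include readings under the level minimum and do not measure an amount of RNA. The called marker was Cxcr2, a chemokine receptor gene, which read 5.34 in STAT4-deficient and 7.60 in wild type Th1 cells, and 4.60 in STAT6-deficient and 6.89 in wild type Th2 cells. Its part in the Ffar2 values was not tested. S100a8 and S100a9, the most abundant neutrophil transcripts, were under the level minimum on all arrays, the highest reading being 5.30. Of 6 measured monocyte and macrophage markers none was called in the STAT4 comparison, with sums of 34.1 in STAT4-deficient and 34.8 in wild type Th1 cells, and 2, Adgre1 and Fcgr3, were called lower without STAT6, with sums of 31.3 in STAT6-deficient and 36.4 in wild type Th2 cells. In Th1 cells Fcgr3, an Fc receptor gene, read 5.63 without STAT4 and 6.62 in wild type, just under the 2-fold limit, and the lysozyme gene Lyz2 read 6.45 without STAT4 and 6.28 in wild type. The part of such cells in the member values was not tested. In the STAT4 comparison none of 5 plasmacytoid dendritic cell, 4 measured NK cell or 5 measured B cell markers was called. None of 2 CD8 T cell or 6 stromal and endothelial markers was called either. In that order, 4, 1, 4, 2 and 4 of them reached the level minimum there, so most NK cell markers could not be called. Klrk1 (-4.89) and Klrc1 (-4.11), receptor genes outside these lists, were lower without STAT4. The part of NK cells in the member values was not tested. In the STAT6 comparison, where Ffar2 and Gem were lower, the CD8 T cell marker Cd8b1 (-2.07) and the endothelial marker Pecam1 (-1.74) were called lower. The CD4 T cell marker Cd247 (-1.58, with probe sets from -2.80 to 0.19) and the dendritic cell marker Flt3 (-1.51) were called lower too. The dendritic cell marker Bst2 (1.75) and the B cell marker Cd22 (1.04, with another probe set at -0.45) were called higher. The part of these markers in the member values was not tested. Of 6 eosinophil and mast cell markers Cpa3, a mast cell protease gene, was called lower in both comparisons, at 5.63 in STAT4-deficient and 6.96 in wild type Th1 cells, and at 4.90 in STAT6-deficient and 8.64 in wild type Th2 cells; the other 5 were under the level minimum on all arrays. The part of Cpa3-bearing cells in the Gem and Ffar2 values was not tested.

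Most member differences kept their side of the 2-fold limit under other scalings of the arrays. Over 7 alternatives Plac8 differed by -5.29 to -4.67 without STAT4 and by 0.29 to 0.74 without STAT6. Gem differed by -4.49 to -3.82 without STAT4 and by -2.09 to -1.66 without STAT6 over the same 7. Only the 4 scalings among these could change the differences of Plac8 and Gem, which have 1 probe set each. Ffar2, with its other probe set as 1 more, differed by -4.57 to -3.95 without STAT4 and by -2.09 to -0.95 without STAT6. The share of all called genes that were lower did move, from 46.3% in the STAT4 comparison as deposited to between 12.5% and 75.2% under other scalings, and from 73.5% in the STAT6 comparison to between 56.6% and 79.9%.

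**Figure D5:**
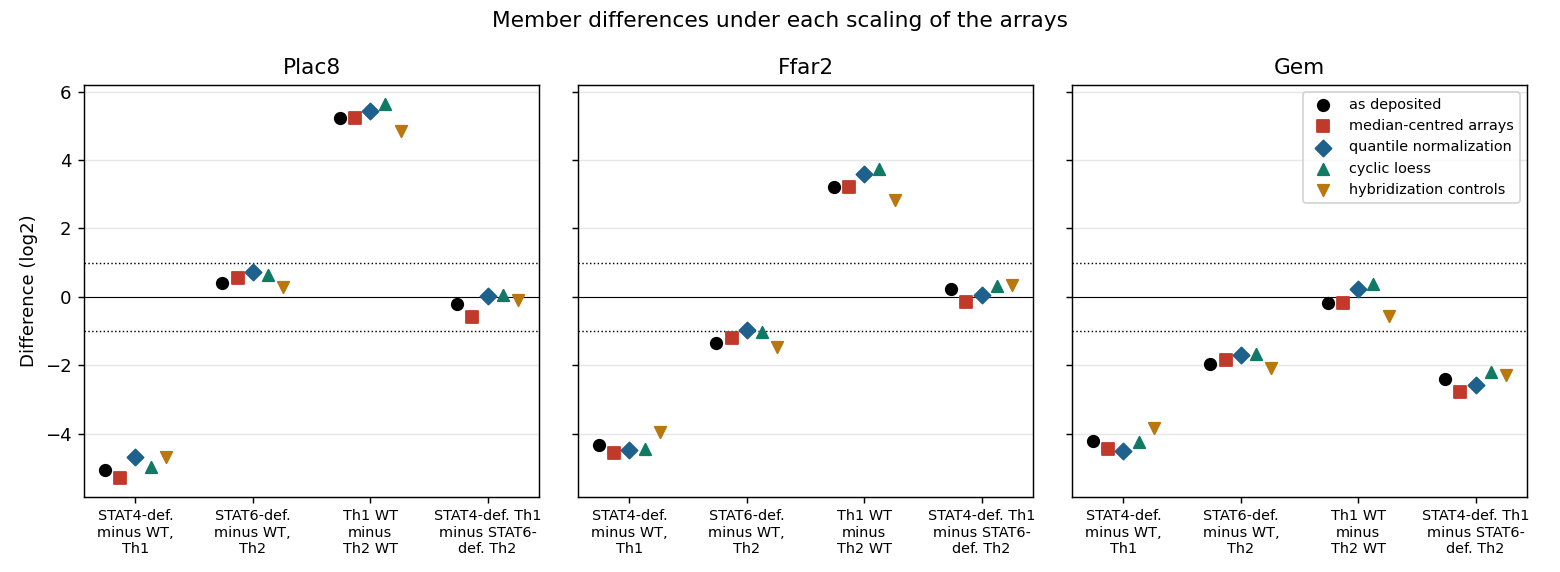
Log2 difference of each member in the 4 comparisons (x axis), with 1 marker for the deposited values and 1 for each of 4 other scalings of the arrays; dotted lines mark 2-fold. Only Ffar2 in the STAT6 comparison crosses a dotted line, at -0.95 after quantile normalization.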

How the data were processed

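Total RNA of 4 cultures was measured on Affymetrix Mouse Genome 430 2.0 arrays. The authors summarised each probe set with RMA and deposited the result on a log2 scale, per the submitters' processing notes; the version and any joint normalization are not given in the sources used here. The values fall on 3295 to 3964 distinct levels per array; near the members the steps are at most 0.028 log2 units.

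Of 45101 probe sets 64 are array controls. The platform annotation gave 1 gene for 34945 of the rest, 932 had several and 9160 none. A RefSeq gene table (GRCm38.p6) supplied current symbols for 34741 of these probe sets, and the order of genes. A gene's main probe set is the one with the highest mean. Named genes are the members, those called or of the same family in the fixed lists, the 3 nearest profiles, 2 neighbours in rank and in position, and Stat4; the markers, the genes under the call limit and the probe-set examples named beyond these were chosen after their values were seen. The members and lists were chosen with earlier results of these data known. Alternatives were 4 scalings (limma 3.58.1 for quantile and loess), the mean over probe sets, each other probe set and 2 level minimums. Python 3.11.15 and pandas 2.3.3 were used. The number of arrays limits the precision. 1 of the lists is not reported here.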

Additional observations from a re-analysis of the deposited data

Results flagged for a closer look

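Plac8 moved in opposite directions in the STAT4 and STAT6 comparisons, at -5.05 and 0.40 log2 units, each from 1 pair of arrays; the difference between the comparisons was not tested. The second value is under the 2-fold limit. Among the listed genes named beside the members, 5 were called lower without STAT4 and higher without STAT6. For these too the difference was not tested. The 5 were Nr4a2 (-3.14 and 1.09), Dusp1 (-1.36 and 1.95), Ifng (-4.14 and 2.02), Il18r1 (-1.85 and 1.94) and Il18rap (-2.23 and 1.57). Over all genes at the level minimum 5.34% were called lower without STAT4 and 7.01% higher without STAT6. The share of all genes with both calls is not given here, and the lists were chosen with earlier results known. Dusp1 was at -0.97 in the STAT4 comparison, under the 2-fold limit, with arrays centred on the hybridization controls. Other probe sets of Nr4a2 reached -0.32 in the STAT4 comparison and -0.37 in the STAT6 comparison.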

How the results depend on the processing

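No paired analysis was possible because each group is 1 array. For the same reason no replicate could be left out. All calls of Plac8 and Gem kept their direction and their side of the 2-fold limit under the 7 alternatives run. Only the 4 scalings could change these differences, because the level minimums and the mean over probe sets leave a gene with 1 probe set as it is. The count of members called lower without STAT6 was 2 as deposited and 1 after quantile normalization and 1 with the level minimum at the 75th percentile (7.76), where Ffar2 fell out: its difference was -0.95 in the first case, and its brighter array read 7.61 in the second. The other Ffar2 probe set gave -2.09 for that comparison. The genes called in the STAT4 comparison numbered 1452 as deposited, 2725 centred on the hybridization controls and 847 with the stricter minimum, and those between the deficient groups 2875 as deposited and 1386 with the stricter minimum. Calls that were lower made up 75.7% between the wild types as deposited and 55.1% to 91.1% under other scalings, and 44.9% between the deficient groups and 31.6% to 81.2%. Calls near the limit that were lost under at least 1 of the 4 other scalings included Rem2, Nr4a2 and Cebpb in the STAT6 comparison. In the STAT4 comparison they included Dusp1, Egr2, Egr3, Junb, Gnai3, Acss1 and Mdm2. The median over all genes in the STAT4 comparison was 0.55 centred on the hybridization controls.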
